A study of Mus musculus with 2 samples.

Results

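Heat-shock and DNAJ genes encode molecular chaperones, the proteins that fold, refold and hold other proteins. The genes described here are the 74 of 21911 protein-coding genes in the mm10 GENCODE annotation whose symbol begins with Hspa, Hspb, Hspd, Hspe, Hsph, Hsp90 or Dnaj. They were chosen by name alone, with no measured value. They comprise 13 Hspa, 10 Hspb, 1 Hspd and 1 Hspe, 1 Hsph, 3 Hsp90, 4 Dnaja, 13 Dnajb and 28 Dnajc genes. The name rule also takes in Hspb11, an intraflagellar transport subunit, and Hspbap1 and Hspbp1, which are partners of HSP27 and HSP70 and not small heat-shock proteins.

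DNase-seq was used to map open chromatin in the gastrocnemius, the main calf muscle, of female B6CASTF1/J mice aged 14 days, which are F1 hybrids of C57BL/6J and CAST. There was 1 group of 2 biological replicates, here library 1 and library 2, from separate biosamples with the same donor record and a label that reads 3x Females. The label of library 2 lists a pair of instruments and that of library 1 lists none, so instrument and library cannot be told apart. There was no second condition, so values are described over the 2 libraries without a test, and the letters printed below are those of the C57BL/6J reference although the mice also carry CAST alleles.

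HSP70 proteins (Hspa) bind exposed stretches of a client and cycle with ATP, J-domain proteins (Dnaja, Dnajb and Dnajc) bring clients to HSP70 and start that cycle, and HSP110 proteins (Hsph1, Hspa4) help HSP70 release them. HSP90 completes the folding of kinases, receptors and, in muscle, myosin. Small heat-shock proteins (Hspb) hold unfolding proteins without ATP and several of them sit at the sarcomere, where contraction strains proteins. Heat shock factors switch many of these genes on through heat shock elements, which are alternating GAA and TTC units in the DNA. Stress of the endoplasmic reticulum (ER) acts through a different sequence, the ER stress element.

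The strict peak lists held 87558 peaks in library 1 and 79562 in library 2, with a median peak signal of 1.53 in each, and 68349 sites were shared, that is held an overlapping peak of both. Signal is a number the authors gave each peak, of unstated scaling. A promoter site is a shared site whose midpoint is 1000 bp or less from a protein-coding start, and a gene's promoter signal in a library is that of its strongest such peak. All 8 skeletal muscle markers, Acta1 and Ckm among them, had a promoter site, and 0 of 4 cardiac, 0 of 3 liver, 0 of 3 B cell, 0 of 3 macrophage and 0 of 3 skin markers had one. Of the other cell types expected in muscle, 2 of 3 endothelial and 3 of 3 fibroblast markers had a promoter site. The part of these cells in the chaperone signals was not tested. In bulk tissue, a site open in fewer nuclei and a site cut less in each nucleus cannot be told apart.

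Nearly all chaperone genes were open. A shared promoter site was present at 70 of the 74 genes (94.6%), beside 62.6% of all protein-coding genes. No chaperone gene had a promoter peak in 1 library alone, which was also rare among all genes (594 of 21911). All 70 also held a footprint, a short protected stretch within a site, in both libraries, as did 99.4% of all genes with a promoter site. The median promoter signal of the open chaperone genes was 11.6 in library 1 and 10.9 in library 2, beside 7.73 and 7.08 for all genes with a promoter peak. Of the 70, 48 lay above the median mean signal of open genes (7.66), and 12 (17.1%) were in the top 10% of open genes, above 18.7. Promoter GC content differs as well: its median within 250 bp of the start was 63.7% for the chaperone genes and 58.7% for all genes. Within bands of GC, 13 of 13 chaperone genes were open at 70% GC or more beside 94.9% of all genes, and 38 of 39 at 60 to 70% beside 91.1%. At 50 to 60% it was 16 of 17 beside 60.5%, and under 50% 3 of 5 beside 11.1%. GC was taken at the start nearest the strongest promoter site, or at the most upstream start where a gene had no site. A gene's band can therefore depend on whether it was open.

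**Figure D1:**
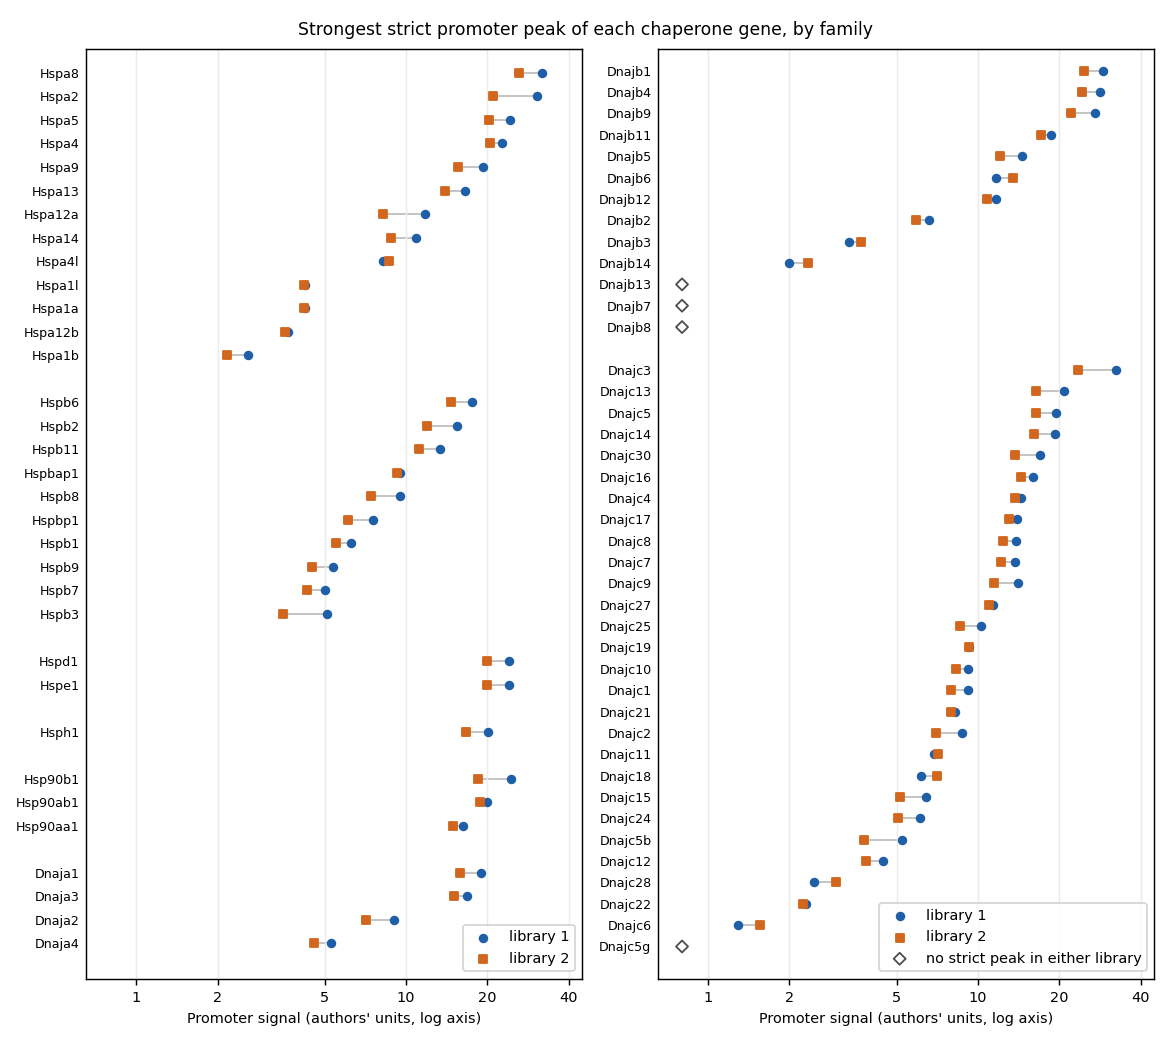
Strongest strict promoter peak of each of the 74 chaperone genes in library 1 (circles) and library 2 (squares), by family, on a log axis in the authors' signal units; diamonds, placed at the left edge with no value, mark genes with no strict peak in either library. Signals run from 1.29 and 1.56 at Dnajc6 to 32.6 in library 1 at Dnajc3 and 26.2 in library 2 at Hspa8.

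**Figure D2:**
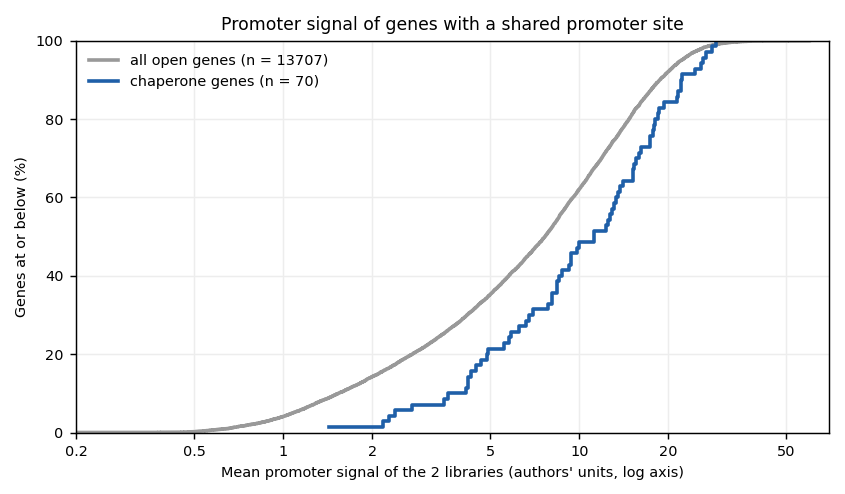
Cumulative percentage of genes (y axis) at or below a mean promoter signal (x axis, authors' units, log scale) for the 70 open chaperone genes and the 13707 genes with a shared promoter site and a strict promoter peak in each library. The chaperone curve lies to the right, with a median of 11.2 beside 7.66.

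Between the libraries, the signal was lower in library 2 at 61 of the 70 genes and higher at 9, a count not made for all open genes. Over all shared sites, promoter and distal, the median log2 ratio of library 2 to library 1 was -0.14 (SD 0.30). With that median taken out, the chaperone promoters had a median of -0.09 and ran from -0.40 at Hspb3 and Hspa2 to 0.41 at Dnajc6. A difference of that size between genes is within what the libraries showed for 1 gene. A promoter site was shared with another gene at 20 of the 70, beside 19.3% of all open genes, and 36 (51.4%) had several promoter sites, beside 50.9% of all open genes.

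The HSP70 genes spanned nearly the whole range, and all 13 were open. Hspa8, which encodes the constitutive cytosolic HSP70, had a signal of 31.95 in library 1 and 26.2 in library 2. Its site, chr9:40800801-40801080, was centred 44 bp upstream of the start. Hspa2, an HSP70 best known from spermatogenesis, had 30.6 and 21.02 and a site with 11 and 14 footprints. Hspa5, which encodes BiP, the HSP70 of the ER, had 24.3 and 20.3. Hspa4, an HSP110 protein, had 22.6 and 20.5, and Hspa9, the mitochondrial HSP70, had 19.2 and 15.5. Hspa13, an ER-associated HSP70, had 16.5 and 13.9. Hspa4l had 8.18 and 8.61, higher in library 2. These 7 genes were at or above the median of all genes in both libraries. The low end held Hspa1b, with 2.59 and 2.17, Hspa12b, with 3.66 and 3.55, and Hspa1a and Hspa1l, with 4.23 and 4.17 from a site they share. Hspa1a and Hspa1b, the stress-inducible genes, were several-fold under Hspa8 in each library, with the limit on reads that fit both copies given below. Of the others, Hspa12a had 11.7 and 8.196, and the ribosome-associated Hspa14 had 10.9 and 8.81.

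Hspa1a and Hspa1b are near-identical neighbours on chromosome 17 that encode the heat-inducible cytosolic HSP70, both on the minus strand. The 300 bases upstream of each start are shown because the copies hardly differ there. They matched at 282 of 300 positions (94.0%), and the first 300 bases after the start at 297 (99.0%). Letters farther upstream, where the strongest peak of Hspa1a lay, were not compared. Capitals mark the 18 positions that differ within the pair (GRCm38.p6, minus strand, 5′ to 3′; chr17:34972157-34972456 for Hspa1a and chr17:34959239-34959538 for Hspa1b).
Hspa1a: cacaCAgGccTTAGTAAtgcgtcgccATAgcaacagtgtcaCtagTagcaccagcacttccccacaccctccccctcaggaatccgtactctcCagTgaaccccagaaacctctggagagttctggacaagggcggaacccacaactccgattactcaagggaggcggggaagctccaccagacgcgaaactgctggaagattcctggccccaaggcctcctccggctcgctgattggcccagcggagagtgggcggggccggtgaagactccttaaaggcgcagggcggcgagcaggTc
Hspa1b: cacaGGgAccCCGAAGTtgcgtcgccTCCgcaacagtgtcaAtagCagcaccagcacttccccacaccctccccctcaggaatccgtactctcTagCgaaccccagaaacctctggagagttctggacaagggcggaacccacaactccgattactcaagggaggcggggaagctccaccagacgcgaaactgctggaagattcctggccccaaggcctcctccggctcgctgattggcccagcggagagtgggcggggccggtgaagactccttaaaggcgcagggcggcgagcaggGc
Reads from such stretches can fit both copies, and their placement by the authors is not given in the sources used here. Near the starts, that leaves both the level at each copy and the split between the copies uncertain.

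Both genes were open upstream and at the start, in different proportions. At Hspa1a the peak shared by the libraries lay 564 to 385 bp upstream in library 1 and 564 to 405 bp upstream in library 2. It covered the start of the divergent Hspa1l, which encodes a testis HSP70. The site was centred 73 bp upstream of the Hspa1l start and 474 bp upstream of that of Hspa1a. The peaks nearer the Hspa1a start did not overlap: 324 to 125 bp upstream with a signal of 2.47 in library 1, and from 84 bp upstream to 75 bp downstream with 2.45 in library 2. At Hspa1b a peak over the start was shared, with 2.59 and 1.95. A second lay 542 to 363 bp upstream, with 2.26 and 2.17. The deposited false discovery rates of the cut rate, given per base, were low upstream and at the start of both genes. Their highest 10-bp mean on the −log10 scale 600 to 350 bp upstream of Hspa1a was 26.8 in library 1 and 45.3 in library 2. Within 100 bp of its start it was 13.3 and 26.0, although library 1 had no strict peak over that stretch. At Hspa1b the matching values were 14.6 and 8.9 upstream and 16.8 and 8.8 at the start. By this measure, which depends on the unknown depth, library 2 was the higher at Hspa1a and the lower at Hspa1b, but 350 to 100 bp upstream of Hspa1a it was level, at 16.1 and 16.6. The peak signals of Hspa1a, 4.23 and 4.17, were level too.

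**Figure D3:**
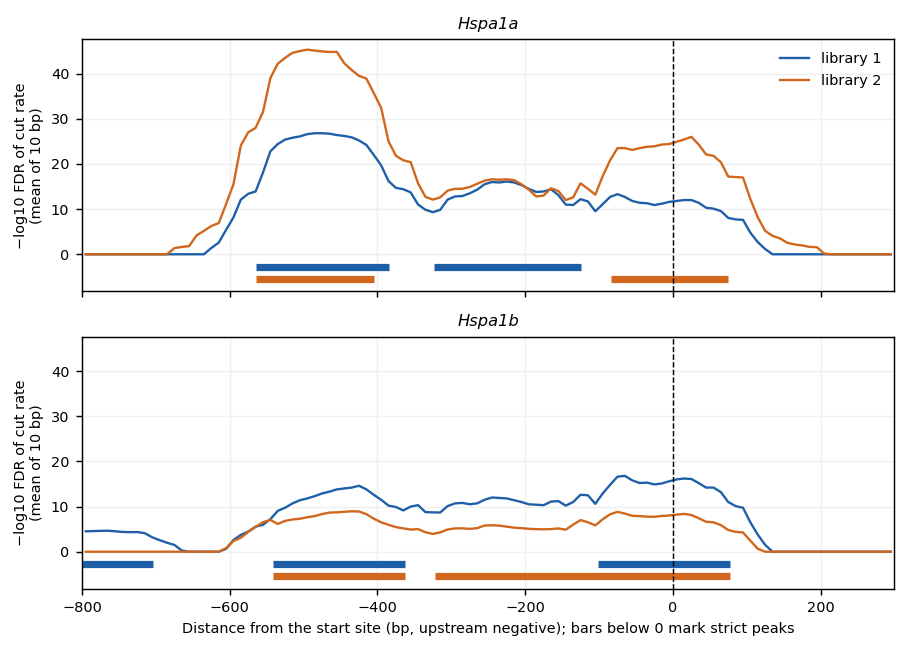
Mean −log10 of the authors' false discovery rate of the cut rate in 10-bp steps (y axis) against distance from the start of Hspa1a (top) and Hspa1b (bottom), in library 1 and library 2; bars under the curves mark strict peaks. Library 2 reaches 45.3 upstream of Hspa1a and 8.9 upstream of Hspa1b, and library 1 reaches 26.8 and 14.6.

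Hsph1 and the HSP90 and chaperonin genes were all open, with signals between 16.2 and 24.4 in library 1 and between 14.9 and 20.01 in library 2. Hsph1, the stress-inducible HSP110, had 20.1 in library 1 and 16.7 in library 2, with a second site 364 bp upstream at 11.6 and 10.8. Hsp90b1 encodes GRP94, the HSP90 of the ER, and had 24.4 and 18.5 from a site it shares with the divergent gene Ttc41. Hsp90ab1, the constitutive cytosolic HSP90, had 19.9 and 18.7, and Hsp90aa1, the inducible form, had 16.2 and 14.9. The inducible and the constitutive HSP90 gene thus lay closer together than Hspa8 and the inducible pair Hspa1a and Hspa1b. The levels of that pair are uncertain where reads can fit both copies, and the Hspa1a value came from the site shared with Hspa1l. Hspd1 and Hspe1, which encode the mitochondrial chaperonin HSP60 and its lid HSP10, start head to head and have 2 promoter sites in common. The stronger, chr1:55087941-55088320, had 24.0 in library 1 and 20.01 in library 2. The other, chr1:55087521-55087720, had 4.515 and 3.569. The signal of these sites cannot be assigned to either gene.

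The stress elements fell in the sites of a few of these genes. A heat shock element was sought on both strands as 3 alternating GAA and TTC units with 2 bases between units. It was found in the shared promoter site of 5 of the 70 open chaperone genes, beside 0.386% of all genes with a promoter site (53 of 13713). The 5 were Hspa8, Hspd1, Hspe1, Dnaja1 and Hsp90aa1, and Hspd1 and Hspe1 share the site that holds it. Each is printed in its gene's direction with the element in capitals, since these letters are what the count rests on (GRCm38.p6). Hspa8 is on the plus strand at chr9:40801055-40801080 and its element is centred 85 bp downstream of the start. Hspd1 is on the minus strand at chr1:55088053-55088082, where a pair of overlapping matches is centred 41 and 46 bp upstream. Dnaja1 is on the plus strand at chr4:40722526-40722554, 60 bp downstream. Hsp90aa1 is on the minus strand at chr12:110696379-110696407, 2 bp downstream.
Hspa8: gcgagcgtGAAAGTTCCAGAAcgccg
Hspd1: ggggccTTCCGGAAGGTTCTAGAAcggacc
Dnaja1: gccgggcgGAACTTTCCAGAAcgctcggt
Hsp90aa1: gagggttcTTCCGGAAGGTTCcggaggct
In windows of 301 bp around each site's midpoint, 6 of 123 chaperone promoter sites (4.88%) held the element, beside 0.288% of all 21910 promoter sites. The 2 additional genes by that count were Hsph1, whose element lay 4 bp upstream of the start just outside the strict peaks, and Dnajb6. With only 2 units, GAANNTTC or TTCNNGAA, 16 of the 70 genes matched, beside 11.9% of all open genes. In the RefSeq promoters (GRCm38.p6, 250 bases before to 50 after the start), 60 of the 74 genes were matched by symbol, and 6 of their 77 promoters held the element of 3 units beside 0.501% of 20150. These were promoters of Hspd1, Hspe1, Hsph1 and Dnajb6, so of the 5 genes above only Hspd1 and Hspe1 recur. The promoters of Dnaja1 in that table lacked it, and Hspa8 and Hsp90aa1 were not matched. Promoter sites of partner genes described below held the element of 3 units as well. They were those of 2 of 8 TRiC genes, 1 of 17 HSP90 co-chaperones, 1 of 11 HSP70 partners and 1 of 9 other chaperones. The remaining partner lists had none.

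The ER stress element, CCAAT followed by 9 bases and CCACG, was found in the promoter sites of 3 of the 70 genes, Dnajc3, Hspa5 and Hsp90b1, beside 0.146% of all genes with a promoter site (20 of 13713). All 3 encode chaperones of the ER: p58IPK, BiP and GRP94. Of the partner lists described below, 2 of 9 other chaperones and 1 of 8 unfolded protein response genes also held it, and the remaining lists had none. The element was centred 140 bp upstream of the start at Dnajc3, 61 bp upstream at Hspa5, and 33 and 138 bp upstream at Hsp90b1. The stretches are printed in each gene's direction with the element in capitals (GRCm38.p6; Dnajc3 plus strand at chr14:118937621-118937900, Hspa5 plus strand at chr2:34772020-34772048, Hsp90b1 minus strand at chr10:86705510-86705780). The run of capitals nearer the start in Hsp90b1 is the element in reverse.
Dnajc3: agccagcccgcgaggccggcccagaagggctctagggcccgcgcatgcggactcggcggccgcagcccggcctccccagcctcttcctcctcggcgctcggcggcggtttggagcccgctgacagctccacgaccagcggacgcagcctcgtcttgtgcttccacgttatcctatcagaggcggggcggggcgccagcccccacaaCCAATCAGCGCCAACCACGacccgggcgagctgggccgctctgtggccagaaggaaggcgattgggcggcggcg
Hspa5: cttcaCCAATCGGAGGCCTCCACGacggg
Hsp90b1: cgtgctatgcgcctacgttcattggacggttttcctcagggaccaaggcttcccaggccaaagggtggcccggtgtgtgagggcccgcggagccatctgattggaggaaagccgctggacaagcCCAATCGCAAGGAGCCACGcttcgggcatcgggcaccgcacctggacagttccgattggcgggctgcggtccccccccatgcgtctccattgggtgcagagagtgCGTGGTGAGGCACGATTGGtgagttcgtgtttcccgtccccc
The ER list as a whole (10 genes) was open at 10 of 10, with a median signal of 17.5 and 15.5.

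Footprints were then set beside the elements. At Hspa8, Hspd1 with Hspe1, and Hsp90aa1, no footprint of either library touched the heat shock element, although these sites held 4 to 7 footprints in library 1 and 5 to 8 in library 2. At Dnaja1 a footprint reached 1 base into the element in library 1 and 2 bases in library 2. The ER stress element of Dnajc3 was touched in both libraries, over 14 of its bases in library 1 and 7 in library 2. That of Hspa5 was touched in library 1 alone, over 7 bases. At Hsp90b1 the element near the start was touched in library 1 over 8 bases and the other in library 2 over 9 bases. Over all promoter sites, 11 of 47 heat shock elements and 9 of 18 ER stress elements overlapped a footprint in both libraries. In the chaperone sites it was 1 of 5 and 1 of 4, too few to compare.

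**Figure D4:**
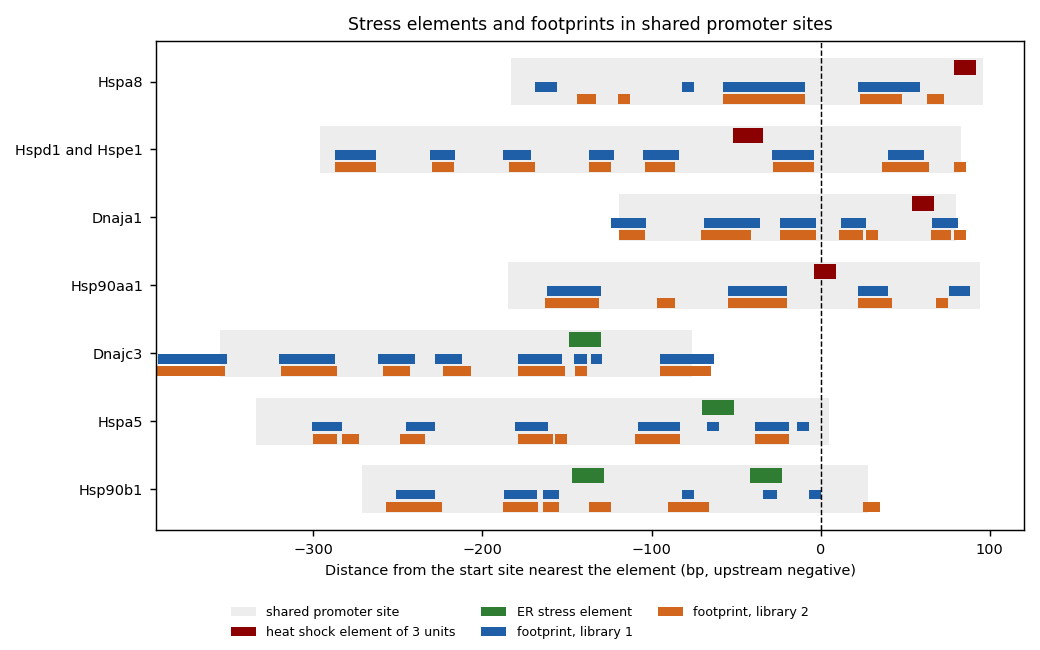
Positions of stress elements and footprints in 7 shared promoter sites (grey), as distance in bp from the start nearest the element, upstream negative; dark red marks heat shock elements of 3 units, green marks ER stress elements, and blue and orange mark footprints of library 1 and library 2. The heat shock elements of Hspa8, Hspd1 and Hspe1, and Hsp90aa1 lie between footprints or at the site's edge, and the ER stress element of Dnajc3 lies under footprints of both libraries.

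Common promoter motifs, also sought on both strands, stood nearer to the rest of the genome. CCAAT, which the ER stress element contains, was in the promoter sites of 35 of the 70 genes beside 41.5% of all open genes. GGGCGG, a core of Sp1 sites, was in 55 beside 76.6%, and CAGCTG, an E-box that MyoD binds, in 16 beside 25.2%. Over the 123 promoter sites there were 489 footprints in library 1 and 499 in library 2. Of those in library 1, 338 (69.1%) had a footprint of library 2 in the same place, overlapping by at least 50% of the wider footprint. Over all promoter sites the share was 60.5%.

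The Hspb genes were open at 10 of 10. The muscle and heart list of 6 had a median signal of 7.86 in library 1 and 6.44 in library 2. Hspb6, which encodes HSP20, had 17.5 and 14.7 from a site 898 bp upstream that it shares with Proser3, while its site 22 bp downstream of the start had 2.90 and 2.35. Hspb2 had 15.5 and 11.95 from a site 586 bp upstream that belongs as much to Cryab, the divergent gene of alpha-B-crystallin, and 3.08 and 2.17 at the site 23 bp downstream of its own start. At both genes the site at the start was several-fold weaker than the strongest one in each library. The sites at the starts also lay within 1000 bp of a start of Proser3 or Cryab, so they are shared too. Hspb7, a heart and muscle form, had 5.00 and 4.29 from a site 861 bp downstream of the start, and Hspb3, a muscle form, had 5.10 and 3.51 from a site 426 bp downstream. Hspb1, which encodes HSP27, had 6.27 and 5.49 at 129 bp upstream, and Hspb8, which works with Bag3 in clearing damaged filaments, had 9.46 and 7.40 at 186 bp upstream. The strongest site lay more than 500 bp from the start at 5 of the 70 genes, Hspb2, Hspb6, Hspb7, Hspb9 and Dnajc5b. That share is close to the 7.04% of all genes with a promoter site. The strongest site lay within 100 bp at 39, a count not made for all genes. The Hspb name rule also gave Hspb11, at 13.4 and 11.2, Hspbap1, at 9.48 and 9.22, and Hspbp1, at 7.503 and 6.08.

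The letters at 4 of these small heat-shock sites are shown for the motifs they hold, printed in each gene's direction with matches in capitals (GRCm38.p6). Hspb1 (plus strand, chr5:135887661-135887918) and Hspb2 (minus strand, chr9:50752841-50752906) hold heat shock elements of 2 units, and Hspb2 shows only the stretch of the shared site outside annotated exons. Hspb7 (plus strand, chr4:141421611-141421636) is the only chaperone gene whose promoter site holds an exact match to the MEF2 consensus, the motif of a muscle transcription factor. Hspb6 (plus strand, chr7:30553264-30553285) holds a TATAAA in the weak site at its own start.
Hspb1: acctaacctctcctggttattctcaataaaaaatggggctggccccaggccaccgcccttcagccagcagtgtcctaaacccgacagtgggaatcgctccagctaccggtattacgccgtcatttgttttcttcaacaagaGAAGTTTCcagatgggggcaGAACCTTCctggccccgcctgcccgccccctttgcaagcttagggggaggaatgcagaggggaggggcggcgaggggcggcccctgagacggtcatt
Hspb2: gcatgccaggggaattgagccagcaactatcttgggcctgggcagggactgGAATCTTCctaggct
Hspb7: gaagaggcCTAAATTTAGccagcaga
Hspb6: gggcacagTATAAAtcggagcc
A MEF2 match was in 0.361% of the 301-bp windows of all promoter sites and in 1 of 123 for the chaperone genes, and TATAAA in 3.75% and in 5 of 123.

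The J-domain genes made up most of the set and held all 4 closed members. All 4 Dnaja genes were open. Dnaja1, the main HSP70 partner of its class in the cytosol, had 18.9 in library 1 and 15.9 in library 2, and Dnaja3, the mitochondrial form, had 16.9 and 15.1. Dnaja2, a further cytosolic form, had 9.02 and 7.10, and Dnaja4 had 5.26 and 4.54. Of the Dnajb genes, 10 of 13 were open. Dnajb1 encodes HSP40, the stress-inducible partner of HSP70, and had 29.05 and 24.8. Dnajb4 had 28.3 and 24.2 from a site 307 bp upstream that it shares with Fubp1. Dnajb9 and Dnajb11, J-proteins of the ER lumen that work with BiP, had 27.2 and 22.1, and 18.6 and 17.1. Dnajb6, which holds keratin and polyglutamine aggregates in check and whose mutation causes a muscular dystrophy, had 11.6 and 13.5, and it was among the 9 genes higher in library 2. Dnajb12, an ER membrane form, had 11.6 and 10.8, and its relative Dnajb14 had 1.99 and 2.34. Of these ER membrane J-proteins, Dnajb12 was the higher in both libraries, by a margin that rests on the window: within 2500 bp of a start Dnajb14 had 7.21 and 6.04. Dnajb5 had 14.6 and 12.1 and Dnajb2 had 6.58 and 5.91.

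Of the Dnajc genes, which share little with each other beyond the J-domain, 27 of 28 were open. Dnajc3 had the highest value of any chaperone gene in library 1, 32.6, and 23.5 in library 2. Dnajc13, which acts in endosomes, had 20.8 and 16.4, and Dnajc5, which encodes the cysteine string protein of synaptic vesicles, had 19.5 and 16.4. Dnajc6, the neuronal auxilin, which strips clathrin from vesicles, had 1.29 and 1.56, the lowest value of any open chaperone gene in each library, though it had 4 shared promoter sites. Gak, the auxilin of other tissues, which is no member by name, had 9.05 and 9.25. Among the nuclear and RNA-linked forms, all 5 open, the histone chaperone Dnajc9 had 14.0 and 11.5 and the splicing factors Dnajc17 and Dnajc8 had 13.9 and 13.0, and 13.8 and 12.4. The ribosome-linked Dnajc2 and Dnajc21 had 8.73 and 7.01, and 8.203 and 7.92. In the mitochondrial list, open at 9 of 9 genes with a median of 16.9 and 13.7, Dnajc30 had 17.0 and 13.7, Dnajc19 had 9.23 and 9.27, Dnajc11 had 6.85 and 7.09, Dnajc15 had 6.44 and 5.15, and Dnajc28 had 2.47 and 2.98. The other Dnajc genes ran from 2.30 and 2.25 at Dnajc22 to 19.3 and 16.05 at Dnajc14, with Dnajc4, Dnajc7, Dnajc12, Dnajc16, Dnajc18, Dnajc24, Dnajc25 and Dnajc27 between them. The ER forms Dnajc10, a disulfide reductase, and Dnajc1 each had 9.15 in library 1, with 8.29 and 7.92 in library 2.

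The 4 genes with no promoter peak were Dnajb7, Dnajb8, Dnajb13 and Dnajc5g. All 4 belong to the list of testis forms, of which 5 of 9 were open. They also lacked a permissive promoter peak, and 0 bases within 1000 bp of their starts had a false discovery rate of the cut rate under 0.05, in both libraries. Their promoter GC content ran from 42.1% at Dnajb7 to 60.5% at Dnajb8. The open testis forms were Hspa2, above, Hspa1l, whose site is that of Hspa1a, Hspb9, with 5.36 and 4.49 from a site 828 bp downstream, Dnajb3, with 3.31 and 3.68, and Dnajc5b, with 5.21 and 3.78 from a site 875 bp downstream. Apart from Hspa2 these values lay below the median of all open genes in both libraries.

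Distal sites, shared sites over 1000 bp from every protein-coding start and assigned to the nearest one within 50 kb, were no more frequent around chaperone genes than around other genes. At least 1 was present at 32 of 74 genes (43.2%), beside 50.4% of all genes, and the median number was 0 beside 1. The chaperone genes had 90 distal sites in all, of which 51 were intergenic, 32 in introns, 4 in coding exons and 3 in UTRs. Their median signal was 1.94 in library 1 and 1.82 in library 2, beside 1.8 and 1.61 for all 31675 distal sites. In 301-bp windows around the midpoint, CAGCTG was found at 30 of the 90 (33.3%), beside 34.0% of all distal sites, and the heat shock element of 3 units at 1 of 90, beside 0.534%.

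At least 3 distal sites were present at 13 of the 74 genes, as at 4386 of all 21911. Hspb1 had 10, the most of any chaperone gene, 5 upstream and 5 downstream. They included the strongest, 7.89 kb upstream with 9.02 in library 1 and 6.20 in library 2, which exceeded the signal at the Hspb1 promoter in both libraries. A further 3 strong sites lay 15.7, 16.1 and 19.4 kb downstream, with 7.15 and 5.74, 5.43 and 5.01, and 5.26 and 4.68. Hspa8 had 9 distal sites, the strongest an intronic one 4.01 kb downstream with 4.32 and 3.22, all far below its promoter. Dnajb12 had 8, led by an intronic site 15.4 kb downstream with 6.90 and 5.56. Hspb3 and Hspb8 had 5 each, none above 2.38 in either library. Dnajc1, Dnajc5b, Dnajc11, Dnajc13 and Hspa12a had 4 each, and Hspa4, Hsp90ab1 and Hsph1 had 3 each. Dnajb1 had a single distal site, 13.9 kb downstream with 5.20 and 5.59, and the strongest of Hspa4 was 8.60 kb upstream with 5.42 and 4.70. Of the muscle and heart list, 4 of 6 genes had a distal site, and Hspb2 and Hspb6 had none.

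The strongest of these sites, 7.89 kb upstream of Hspb1 (GRCm38.p6, plus strand, chr5:135879941-135880120, intergenic), is printed for its 2 CAGCTG matches, in capitals. It held 3 footprints in library 1 and 4 in library 2.
Hspb1 distal: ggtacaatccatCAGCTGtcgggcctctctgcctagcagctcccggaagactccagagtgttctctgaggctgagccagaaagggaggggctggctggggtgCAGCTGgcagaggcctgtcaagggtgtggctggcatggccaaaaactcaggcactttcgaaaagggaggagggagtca
Assignment to the nearest start does not show which gene a distal site acts on.

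**Figure D5:**
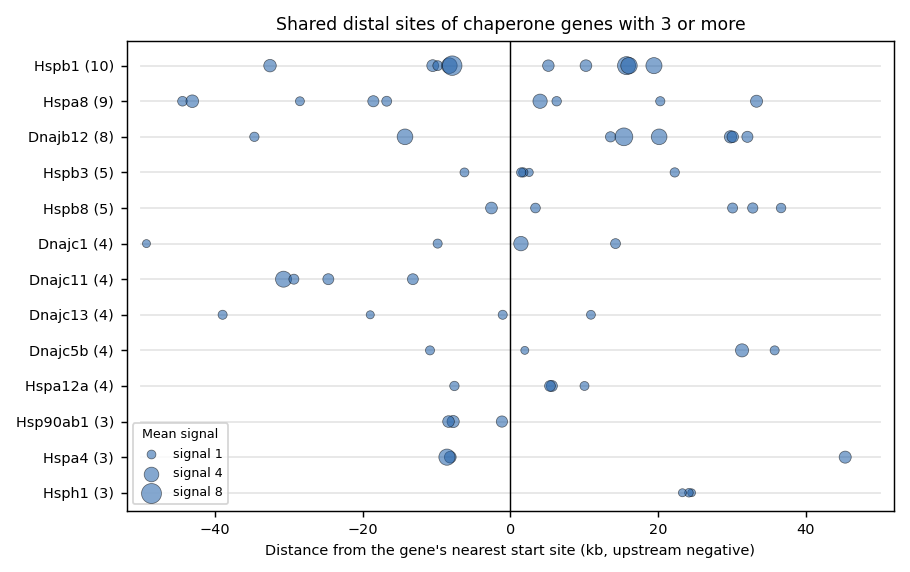
Shared distal sites (points) of the 13 chaperone genes with 3 or more, by distance in kb from the gene's nearest start (x axis, upstream negative); point area grows with the mean signal of the 2 libraries, and the number of sites is in parentheses. Hspb1, with 10 sites, has its largest points 7.89 kb upstream and 15.7 kb downstream.

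Of the 213 promoter and distal sites, 6 (2.82%) differed between the libraries by more than 2 SD of the log2 ratio (0.60) after centring, beside 5.20% of all shared sites. The intergenic site 30.7 kb upstream of Dnajc11 stood farthest out, with 6.65 in library 1 and 3.16 in library 2, a centred log2 ratio of -0.93. A site 8.28 kb upstream of Hspb1 had 5.84 and 3.43 (-0.63). The single distal site of Hspa1b, 6.75 kb downstream, went the other way, with 3.05 and 4.26 (0.63).

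The genes that work with these chaperones were mostly open, beside 62.6% of all genes. A promoter site was present at 8 of 8 genes of the cytosolic chaperonin TRiC found in the annotation, led by Cct7 at 25.7 and 18.8 and Tcp1 at 24.96 and 18.1. These 8 include Cct6b. Cct6a, also on the list, is not in the annotation used and was not assessed, so the count does not cover every subunit. The 6 of 6 open prefoldin genes, which hand clients to TRiC, were lower, led by Pfdn1 at 9.74 and 9.77 and Pfdn2 at 8.65 and 8.56. All 17 HSP90 co-chaperones were open, led by the ubiquitin ligase Stub1 at 30.4 and 23.04. All 11 HSP70 exchange factors and partners were open, led by Bag3 at 23.5 and 20.1 and Bag4 at 22.5 and 18.5. Unc45b, the co-chaperone that folds muscle myosin, had 3.19 and 3.06. Of the heat shock factor list, 4 of 6 were open. Hsf1, the main factor of the heat response, had 17.9 and 17.75, and Hsf2 had 15.5 and 13.2. Hsf5 had no strict promoter peak, and Hsf3 had 0.565 in library 1 alone. All 8 genes of the unfolded protein response list were open, with Ddit3, a stress-induced transcription factor, at 38.3 and 31.8 and Atf4, which activates it, at 23.2 and 17.2. Of 9 other chaperones 8 were open, led by the ER lectins Calr at 27.5 and 19.99 and Canx at 16.4 and 14.4, and Cryaa, the lens crystallin, had no strict promoter peak. That list includes Hspbap1 and Hspbp1, which are also counted among the chaperone genes above. Neither held a heat shock element of 3 units or an ER stress element in a promoter site.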

How the data were processed

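DNase-seq was analysed in 2 libraries of 1 group. Per the labels, the deposited peak, footprint and per-base files were made per library on mm10, without pooling. The aligner, callers and peak thresholds: not given in the sources used here. Peak signal is a deposited number, made by the authors with a scaling that is not stated. The deposited per-base files give q-values (false discovery rates) of the cut rate, listed under 0.05, and every footprint carries the level 0.01. As no read totals were used, the depth behind a signal is unknown.

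Strict peaks of the libraries that overlapped by at least 1 bp were merged into shared sites. Promoters were sites within 1000 bp of a start of a protein-coding transcript (GENCODE M21), and distal sites went to the nearest start within 50 kb. GC content was taken over 501 bp. Motifs were exact matches on GRCm38.p6. Scripts (Python 3.11.15, pandas 2.3.3, pysam 0.24.0) were checked on simulated data. The genes, lists and alternatives were chosen with earlier results of these data known. Values are named for the 3 highest genes per family, all genes with no peak or a peak in 1 library, those with 3 or more distal sites, the 5 strongest distal sites, the compartment lists and genes with a heat shock element. Partner lists are given by count with their highest genes, of which 1 is not reported here. Unc45b, Dnajb6, the members outside these rules and the uneven distal sites were singled out after their values were seen. No test was run, since 1 group of 2 libraries allows none. Sequence from chromosome 18 is not printed.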

Additional observations from a re-analysis of the deposited data

How the results depend on the processing

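The promoter count was steady over the alternatives tried. It was 70 with permissive lists, a 2500 bp window, starts of all transcripts and each library alone, 69 with 50% reciprocal overlap (without Dnajb14) and with the stronger 50% of peaks (without Dnajc6), and 68 with a 500 bp window (without Hspb7 and Dnajc5b). The count of distal sites, 90, was 139 with permissive lists, 50 with the stronger 50% of peaks, 58 within 20 kb, and 103 to 122 with 1 library left out. Chaperone genes with a distal site numbered 34 to 37 with 1 library left out. They numbered 43 with permissive lists, 24 with the stronger 50% of peaks and 27 within 20 kb. Among all protein-coding genes, open genes numbered 13958 to 14080 with 1 library left out. That count was 14685 with permissive lists, 12190 with the stronger 50% of peaks and 13314 with a 500 bp window. Heat shock elements were found at 16 genes with 2 units in place of 3, and at 5 with either library left out, where Hspb1 took the place of Dnaja1 without library 2. The median promoter signal fell to 7.97 and 7.06 when a gene's promoter peaks were averaged, and was 10.05 in library 2 with a 500 bp window. That window moved Hspb2 to 3.08 and 2.17, Hspb6 to 2.90 and 2.72, and Hspb9 to 2.44 and 2.57. A 2500 bp window moved Dnajb14 to 7.21 and 6.04 and Hspb9 to 6.69 and 6.17. The footprint count was 70 in each alternative. No paired analysis was possible because there is 1 group. Depth is unknown, so a low signal and a shallow library cannot be separated by it.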
